A study of Mus musculus with 3 samples.

Results

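The replication-dependent histone genes encode the linker histone H1 and the core histones H2A, H2B, H3 and H4, which package DNA into nucleosomes. They were taken as the protein-coding genes whose GENCODE M21 symbol begins with Hist1h, Hist2h, Hist3h or Hist4h, which gave 67 members of 22028 protein-coding and 55536 annotated genes. The set holds 6 H1, 18 H2A, 18 H2B, 12 H3 and 13 H4 genes. Of these, 54 lie on chromosome 13 (the Hist1 cluster), 10 on chromosome 3 (Hist2), 2 on chromosome 11 (Hist3) and 1 on chromosome 6 (Hist4). Another 3 rows with such symbols are annotated as pseudogenes and are not members.

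The RNA came from the cytosolic fraction of bone marrow-derived macrophages of C57BL/6J mice, treated for 50 min with lipid A, a Toll-like receptor 4 ligand, at 100 ng/ml. Total RNA was depleted of ribosomal RNA and sequenced in 3 libraries (replicates 1, 2 and 3) of this 1 group. No unstimulated sample was analysed here, so no value is a response to lipid A. The libraries carry separate biosample records and the same donor label, with no statement of separate animals or cultures. The p-values below thus rest on the spread among these 3 libraries alone, part or all of which can be technical.

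Replication-dependent histone genes are transcribed mainly in S phase, when newly made DNA needs histones. Their mRNAs are the known exception among animal mRNAs in lacking a poly(A) tail. They end instead just after a short stem-loop, which the stem-loop binding protein Slbp holds. A complex containing the U7 small nuclear RNA cuts the transcript after the stem-loop. A library depleted of ribosomal RNA can hold such mRNAs, which selection of poly(A) RNA would miss. Some copies also make polyadenylated mRNA in cells that do not divide.

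The libraries held 33044910, 36769402 and 36522216 expected counts on genes, and a count of 0 allows up to 0.0908, 0.0816 and 0.0821 CPM (3 counts of each total, counting error only). All 6 macrophage markers reached 10 TPM in each library, with sums between 6057 and 9198 TPM. None of 26 markers of T cells, B cells, neutrophils, erythroid cells, stroma and progenitors reached 1 TPM in every library. Their sums lay between 2.05 and 4.59 TPM, and 7 of the 26 had a count of 0 throughout. In bulk RNA, fewer cells in S phase and less histone mRNA per such cell cannot be told apart.

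The letters of the histone stem-loop were found in most members, and those of H4 genes differed from the rest. The search asked for GG, any 2 bases, CT, any 2, T, any 1, A, any 3 and CC, with 6 paired stem bases, on the gene's own strand after the stop codon. Each member was searched in 1 transcript, the one with the highest mean TPM in the first quantification, and 5 members have several. The search matched 46 of 67 members (68.7%). The same letters anywhere in any annotated protein-coding transcript matched 32 of 21799 other protein-coding genes (0.147%). Among them was H2afx, a histone variant gene known to make a stem-loop mRNA. Another of them, Trim17, shares annotated exon bases with the member Hist3h2a. The following 26-base windows (mm10) are examples from each class, not always its most frequent form, with the 16 letters of the stem-loop in capitals.
Hist1h1c (H1), chr13:23739507-23739532, plus strand: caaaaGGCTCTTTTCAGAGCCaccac
Hist2h2aa2 (H2A), chr3:96239779-96239804, minus strand: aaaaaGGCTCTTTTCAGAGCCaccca
Hist1h2bg (H2B), chr13:23571838-23571863, plus strand: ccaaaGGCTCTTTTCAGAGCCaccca
Hist1h3c (H3), chr13:23745042-23745067, minus strand: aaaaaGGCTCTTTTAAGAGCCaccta
Hist1h4h (H4), chr13:23531453-23531478, plus strand: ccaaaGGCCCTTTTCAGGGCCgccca
Hist1h4b (H4), chr13:23757361-23757386, plus strand: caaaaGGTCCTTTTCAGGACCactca

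The form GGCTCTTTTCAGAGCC occurred in 26 members, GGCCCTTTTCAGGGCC in 7 and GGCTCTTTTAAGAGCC in 6. All 34 stem-loops of H1, H2A, H2B and H3 genes began with GGCTC, whereas the 12 of H4 genes began with GGCCC or GGTCC. In 18 members the searched transcript continues for over 200 bases after the stem-loop, and in 28 for at most 200. TPM divides by annotated length, and whether the RNA ended at the stem-loop was not tested. Of the 21 members without a match, 15 have a searched transcript with at most 20 bases beyond the coding sequence. That leaves little or nothing after its stop codon to search. The remaining 6, including Hist1h2bc, have bases after the stop codon in the searched transcript but no match there. The searched transcript of Hist1h2bc has 2 exons. Bases outside the searched transcripts were not covered, so these genes cannot be said to lack a stem-loop.

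Most histone genes were listed at 1 TPM or more in the cytosolic RNA, at moderate levels. In the first quantification (tables in the layout of RSEM), 52 of 67 members reached 1 TPM in each library (77.6%), against 9128 of 22028 protein-coding genes (41.4%). TPM is the abundance per annotated length relative to all transcripts of the library. The members' median was 5.65 TPM, against 0.197 TPM over protein-coding genes. Of the other 15 members, 10 were under 1 TPM in every library. For 29 of 67 members under 50% of the 100-base windows of the transcript were unique in the annotation, and for 7 none was. Some members may thus reach 1 TPM on reads of a near-copy. Hist1h2bq, counted among the 52, had deposited lower bounds of 0.222, 0.201 and 0.579 TPM. Together the members held 0.136%, 0.184% and 0.190% of protein-coding TPM in libraries 1, 2 and 3 (0.170% ± 0.0297, SD, n = 3), lowest in library 1. The sums of their deposited TPM were 521, 490 and 660.3. Protein-coding genes as a whole held 383299, 265951 and 347616 deposited TPM, lowest in library 2. Deposited TPM of different libraries, also those given below, are therefore not on the same scale.

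**Figure D1:**
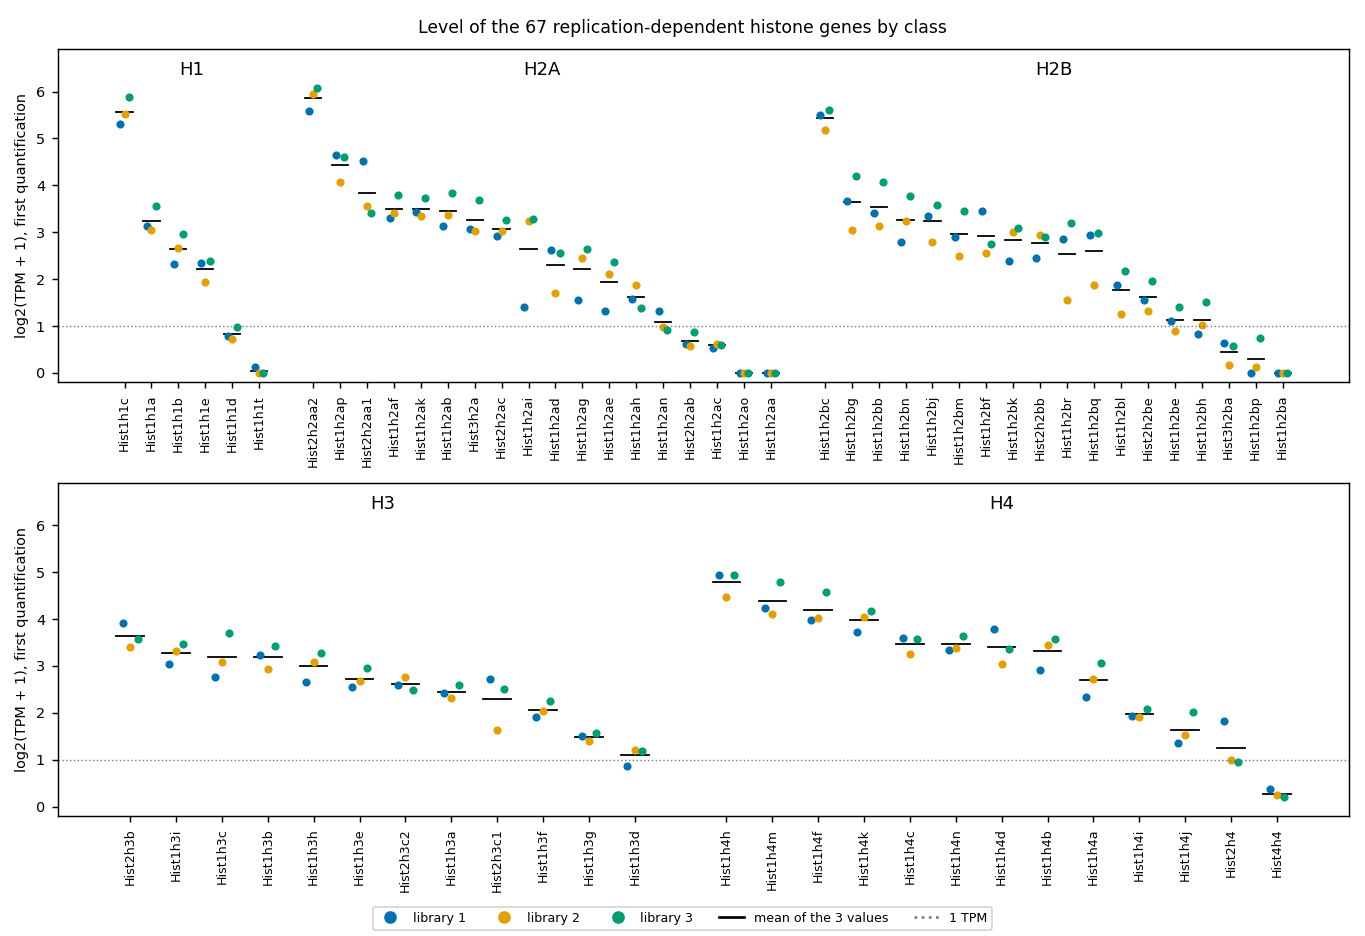
Level of each member in the first quantification as log2(TPM + 1), by class and in order of mean TPM, with a point per library, a bar for the mean of the 3 values and a dotted line at 1 TPM. Hist2h2aa2, Hist1h1c and Hist1h2bc stand above the other members in all 3 libraries.

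Among the H1 genes, which encode the histone that binds the DNA between nucleosomes, 4 of 6 reached 1 TPM in each library. Hist1h1c (ENSMUSG00000036181.2, chr13:23738808-23740367) had 38.5, 44.9 and 58.1 TPM in libraries 1, 2 and 3 (47.2 ± 9.97, SD, n = 3). It carried the highest mean expected count of all members, with 2188, 3801 and 3920 counts. Its 95% credibility bounds, as the authors deposited them, spanned 36.2 to 39.3 TPM in library 1. These reads were hardly shared with other genes, and library 1 was the lowest in both these TPM and counts. Hist1h1a followed at 8.58 ± 1.90 TPM and Hist1h1b at 5.38 ± 1.41 TPM. Hist1h1d shows how length enters: its annotated transcript of 7425 bases drew 222, 296 and 347 counts but only 0.780 ± 0.168 TPM. The testis-linked Hist1h1t had counts of 3, 0 and 0.

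Among the H2A genes, 13 of 18 reached 1 TPM in each library. Hist2h2aa2 (ENSMUSG00000063954.7, chr3:96239749-96240276) was the highest member, at 47.1, 60.8 and 66.6 TPM (58.1 ± 10.02). Its coding sequence is identical to that of Hist2h2aa1 (chr3:96245497-96246082), listed at 22.1, 10.9 and 9.70 TPM. Library 1 was thus the lowest for Hist2h2aa2 and the highest for Hist2h2aa1. Their sum was 69.2, 71.6 and 76.3 TPM, but 940.3, 1425 and 1275 expected counts, lowest in library 1 on both scales. None of the 100-base windows of either transcript was unique in the annotation, so the split between the copies is uncertain. Hist1h2ap, the second H2A gene, had 24.1, 15.7 and 23.3 TPM. The coding sequence of Hist1h2ao is identical to that of Hist1h2ap, yet Hist1h2ao was listed at 0 in each library of the first quantification. The testis-linked Hist1h2aa also had a count of 0 in each.

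Among the H2B genes, 13 of 18 reached 1 TPM in each library. Hist1h2bc had 44.5, 35.3 and 47.7 TPM (42.5 ± 6.43), with 1760, 2088 and 2264 counts. It was lowest in library 2 in deposited TPM but in library 1 in counts, and counts of different libraries also differ by depth. With TPM rescaled to the same total over protein-coding genes, it had 116, 133 and 137, lowest in library 1. Hist1h2bg followed at 12.1 ± 5.10 TPM and Hist1h2bb at 11.1 ± 4.24 TPM, and the SDs of these neighbours exceed the gap between them. The testis-linked Hist1h2ba had a count of 0 in each library. Hist1h2bq and Hist1h2br, identical in coding sequence, had 5.41 ± 2.36 and 5.45 ± 3.16 TPM.

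All 12 H3 genes were above 1 TPM in at least 1 library, 11 of them in each, and none reached 10 TPM in every library. Hist2h3b had 14.1, 9.58 and 10.9 TPM (11.6 ± 2.34), Hist1h3i 8.74 ± 1.38 and Hist1h3c 8.48 ± 3.24 TPM. The values of these 3 overlapped between libraries. The H4 genes, 11 of 13 at 1 TPM in each library, had the highest class median, 9.81 TPM. Hist1h4h had 29.8, 21.1 and 29.9 TPM (26.9 ± 5.04), Hist1h4m 20.2 ± 5.77 and Hist1h4f 17.6 ± 4.47 TPM. Hist1h4m and Hist1h4n are identical in coding sequence, and their sum was 26.9, 25.7 and 38.3 TPM, highest in library 3.

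A few genes carried much of the total: the 10 highest members held 49.4% ± 1.02 of the summed TPM and the 3 highest held 26.6% ± 1.95. By class, H2A held 29.3% ± 1.70, H4 23.6% ± 0.419, H2B 22.8% ± 2.48, H3 12.6% ± 0.466 and H1 11.8% ± 1.01. The share of H2B did not differ from that of H4 beyond its spread on this scale. The sum of H3 was thus the smallest among core histones, over fewer genes, while the median of its genes, 5.40 TPM, lay between those of H2A (5.19 TPM) and H2B (5.67 TPM). The measure matters: of the members' expected counts, which are not divided by length, H1 held 28.4% ± 2.36, H2B 24.3% ± 1.91, H2A 21.2% ± 0.965, H4 14.4% ± 1.41 and H3 11.7% ± 0.559.

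**Figure D2:**
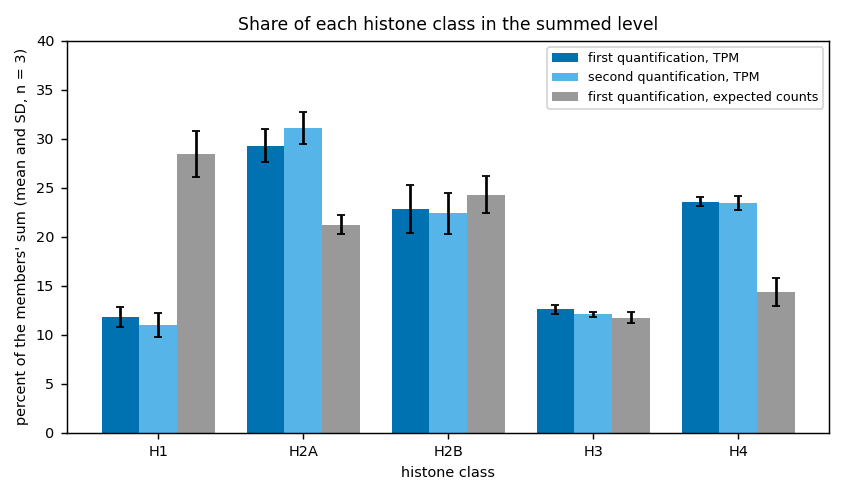
Share of each histone class in the members' summed level, as mean and SD over 3 libraries, for the TPM of each quantification and for expected counts. Both TPM scales give H2A the largest and H1 the smallest share, and expected counts give H1 28.4%.

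Other genes of histone supply were set beside the members. The members summed to 557 ± 90.8 TPM and the 11 replication-independent variants, whose proteins can enter chromatin outside S phase, to 845 ± 142 TPM. As a share of protein-coding TPM, the members held 0.170% ± 0.0297 and the variants 0.255% ± 0.00795. Of protein-coding expected counts the members held 0.0471% ± 0.00840 and the variants 0.179% ± 0.00922, a wider gap. H3f3b (400.3 ± 49.7 TPM) and H3f3a (277 ± 72.9 TPM), which both encode the H3.3 protein, made up most of the variants' sum and lay above every member. H1fx was the lowest variant at 0.0567 TPM. Of 18 histone mRNA processing factors, 16 reached 1 TPM in each library, with a median of 8.70 TPM. Snrpb and Sympk were highest, at 33.4 ± 9.55 and 19.9 ± 3.08 TPM, and Zfp473 was lowest at 0.187 TPM. Slbp itself had 8.48 ± 1.10 TPM, and Npat, which drives histone gene transcription, 2.64 ± 0.890 TPM. Of 23 S phase genes, 15 reached 1 TPM in each library, with a median of 2.61 TPM. All 11 histone chaperones did, with a median of 7.45 TPM.

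Many histone genes start back to back with another, sharing the DNA between them. Of 13 such pairs within 1000 bp, 12 joined an H2A and an H2B gene, with start sites 176 to 660 bp apart over all 13. In 8 pairs both genes reached 1 TPM in each library, and their means differed by 1.15-fold to 4.02-fold, with a median of 2.75-fold. Hist1h2bc and Hist1h2ac stood apart: Hist1h2bc had 44.5, 35.3 and 47.7 TPM, and Hist1h2ac 0.450, 0.540 and 0.520 TPM. The means differed 84.5-fold, and no library of one overlapped the other. TPM divides by annotated length, which is 1156 bases for Hist1h2bc and 2482 for Hist1h2ac. Counts, which are not divided by length, were 1760, 2088 and 2264 for Hist1h2bc and 43.5, 76.7 and 59.3 for Hist1h2ac, again with no overlap.

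**Figure D3:**
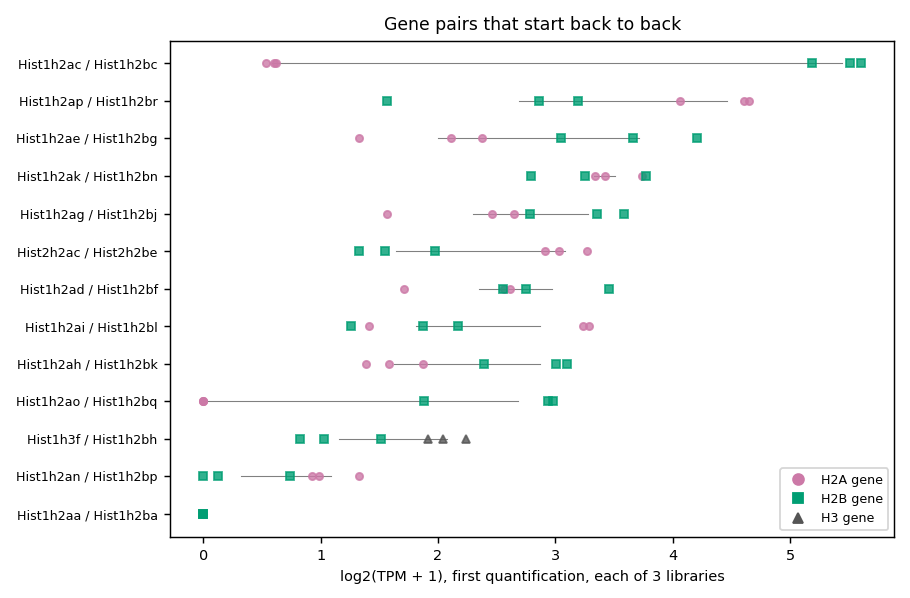
Level of the 13 pairs of members that start back to back, as log2(TPM + 1) in each of 3 libraries, with a grey line between the means of the 2 genes. In the uppermost pair the Hist1h2bc values are 44.5, 35.3 and 47.7 TPM and the highest Hist1h2ac value is 0.540 TPM.

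The DNA between the start sites is printed for this pair and for Hist1h2bg and Hist1h2ae, whose 4.02-fold difference was the largest among the 8 pairs. The sequences are RefSeq's (GRCm38.p6, the assembly called mm10). Capitals mark TATAAA (the TATA box letters), CCAAT and ATTTGCAT (the octamer letters known from H2B promoters) on either strand. The first is on the minus strand and reads toward Hist1h2ac, and the second on the plus strand toward Hist1h2bg.
Hist1h2bc to Hist1h2ac, chr13:23683949-23684198: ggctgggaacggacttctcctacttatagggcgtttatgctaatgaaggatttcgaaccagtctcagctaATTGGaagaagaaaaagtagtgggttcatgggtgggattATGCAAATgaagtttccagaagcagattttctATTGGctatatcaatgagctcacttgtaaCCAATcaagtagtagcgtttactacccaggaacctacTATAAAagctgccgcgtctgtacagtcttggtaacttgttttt
Hist1h2ae to Hist1h2bg, chr13:23571221-23571395: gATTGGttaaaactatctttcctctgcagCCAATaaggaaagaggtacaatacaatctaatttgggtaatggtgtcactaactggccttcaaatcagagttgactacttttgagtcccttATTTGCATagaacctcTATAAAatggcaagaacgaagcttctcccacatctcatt

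In the first window TATAAA was found toward Hist1h2ac, the lower gene, 43 bases before its start, and a CCAAT match 80 bases before it. Toward Hist1h2bc, the higher gene, ATTTGCAT and 2 CCAAT matches were found and no TATAAA. Only exact letters were marked, and the near form TATAAG does read toward Hist1h2bc in this window. The absence of TATAAA is thus not the absence of a TATA box. In the second, TATAAA and ATTTGCAT both read toward Hist1h2bg, the higher gene. These letters are a description and say nothing of which factor binds. RefSeq windows of 300 bases around the start (250 before to 50 after) were matched for 61 members. TATAAA was found in 35 of them (57.4%) and in 14.1% of 26963 windows of other genes. CCAAT was found in 52 (85.2%) and in 37.8% of the others, with all 49 windows of H1, H2A, H2B and H3 genes but 3 of 12 of H4 genes. ATTTGCAT was found in 13 (21.3%), of which 7 were H2A and 6 were H2B windows, and in 1.71% of the others. Windows of genes that start back to back overlap, so that 1 match can count for both genes. The match in the Hist1h2ac window reads toward Hist1h2bc, and that of the Hist1h2ae window toward Hist1h2bg.

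Variation of each gene between the 3 libraries was tested next, with edgeR. A goodness-of-fit test on expected counts called 203 of 12231 genes tested at a Benjamini-Hochberg adjusted p under 0.05 (1.66%). Of the members, 59 were tested and 2 were called, a share of 3.39% that is 2 genes. Hist1h2ai had −1.42, 1.37 and 1.20 log2 CPM in libraries 1, 2 and 3 (edgeR, adjusted p = 0.00629). Library 1 was thus far below the others. Hist1h2br had 0.35, −0.81 and 1.78 log2 CPM (edgeR, adjusted p = 0.00795), lowest in library 2 and highest in library 3. At an unadjusted p under 0.05 there were 14 members, and of 12231 genes 785.

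Both called genes are near-copies of others, and neither was called in the second quantification. On the counts of the second quantification (tables in the layout of kallisto), edgeR called 0 of 58 members tested, with 7 at an unadjusted p under 0.05. Of all 13372 genes tested on those counts, 200 were called and 781 had an unadjusted p under 0.05. There Hist1h2ai had 78.5, 124 and 150 counts, against 11.9, 92.0 and 85.4 in the first. Without library 1 the edgeR adjusted p of Hist1h2ai was 1.00, but it was 0.0239 without library 2 and 0.0140 without library 3. For Hist1h2br the edgeR adjusted p was 0.00221 without library 1, 0.470 without library 2 and 1.00 without library 3. The deposited posterior SD of the count averaged 56.8% of the count for Hist1h2br and 21.5% for Hist1h2ai. When Hist1h2br was summed with its identical copy Hist1h2bq, a choice made after seeing the data, the edgeR adjusted p was 0.805.

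Coding stretches show how little separates such copies, with capitals at the differing bases and positions counted from 1 at the A of ATG. Hist1h2br and Hist1h2bc differ by C57G and A226G over the coding sequence, the base of Hist1h2br first. Hist1h2ai and Hist1h2ad differ by G18A, C24T, T51C, G390A and G392A, the base of Hist1h2ai first. Bases 57 to 116 of the first pair and 18 to 77 of the second are shown, from GENCODE M21 transcripts.
Hist1h2br: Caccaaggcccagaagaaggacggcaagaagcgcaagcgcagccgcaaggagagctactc
Hist1h2bc: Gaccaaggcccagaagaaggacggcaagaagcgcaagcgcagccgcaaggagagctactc
Hist1h2ai: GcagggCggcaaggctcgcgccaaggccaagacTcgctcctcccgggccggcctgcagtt
Hist1h2ad: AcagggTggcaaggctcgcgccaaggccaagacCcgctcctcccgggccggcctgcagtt

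Many histone genes were low in library 1, most of them without a call of their own. Relative to each gene's mean log2 CPM, their median deviation was −0.33 in library 1, 0.10 in library 2 and 0.23 in library 3. Of 59 members, 42 were lowest in library 1 (71.2%), against 4684 of 12231 genes (38.3%), and 33 were highest in library 3 (55.9%), against 3913 genes (32%). Over all genes tested the medians lay within 0.01 of 0. The median in library 1 was below 0 in each class, between −0.40 (H2A) and −0.20 (H2B). Library 3 was the highest for 3 of 12 H3 genes (25%), which for so few genes is near the 32% of all genes. Library 2 was the highest for 7 of the 12, against 3813 of 12231 genes. Hist1h1c, whose reads are nearly all its own, had 6.04, 6.73 and 6.72 log2 CPM (edgeR, adjusted p = 0.162).

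Other short genes moved with the histone genes. The 169 other protein-coding genes of at most 600 bases had medians of −0.18, −0.01 and 0.17 in libraries 1, 2 and 3. Of these 169 genes, 25 were called (14.8%), against 1.66% of all genes tested and 3.39% of the members. Mean fragment lengths implied by the deposited effective lengths were 229, 224 and 199 bases, longest in library 1, while the members' median transcript length was 528 bases. The part of fragment length in the result was not tested. The replication-independent variants had medians of −0.17, 0.07 and 0.12, with 9 of 10 lowest in library 1. S phase genes had −0.05, −0.03 and 0.04, and processing factors 0.01, −0.01 and 0.02. None of the 10 variants, 23 S phase genes and 18 processing factors tested was called by edgeR, against 1.66% of all genes tested. At that share, lists of this size would hold few calls or none.

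**Figure D4:**
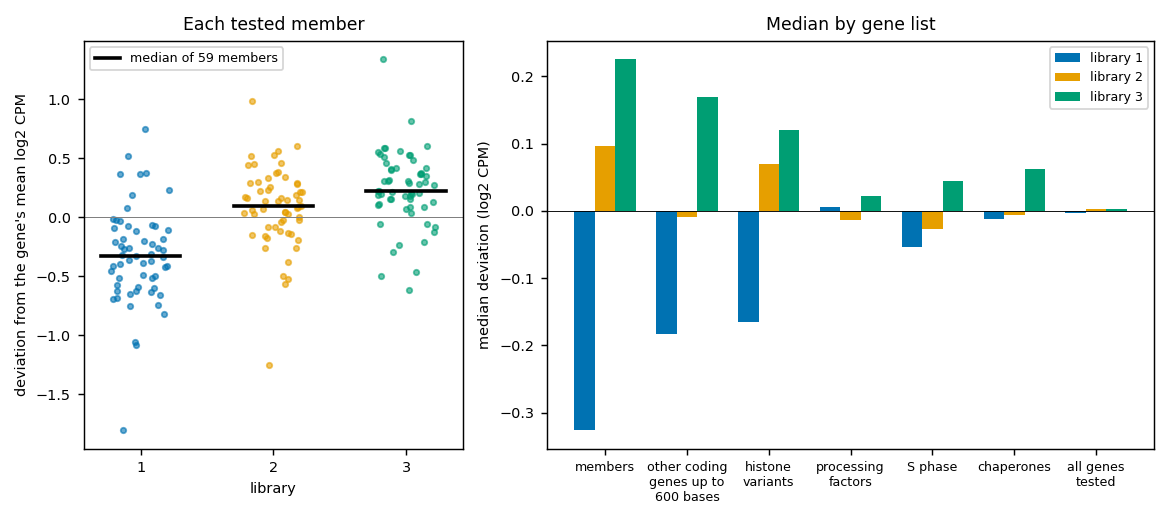
Deviation from each gene's mean log2 CPM in libraries 1, 2 and 3, as points for the 59 tested members (left, black bars are medians) and as medians of each gene list (right). The members' median is −0.33 in library 1 and that of S phase genes −0.05.

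Since the members are so alike, the quantifications were set against each other. TPM of each were rescaled to the same total over protein-coding genes, and 62 members at 1 TPM or more in either were compared as log2((second + 1)/(first + 1)) of the means. The median was −0.05 ± 0.04 (SD over 3 libraries) for the members and 0.01 ± 0.01 for 10905 protein-coding genes. Only 2 members were over 2-fold apart (3.23%), against 241 protein-coding genes (2.21%). Hist2h3c1 had 3.92, 0.00212 and 6.33 TPM in the second and 14.6, 7.97 and 13.6 TPM in the first, lower in the second in each library. Its exons, like those of Hist2h2aa1, share bases with Gm20634 on the same strand, and none of its 100-base windows was unique. The part of this overlap in the difference was not tested. Hist1h2ah had 8.08, 23.2 and 14.3 TPM in the second and 5.22, 10.002 and 4.66 TPM in the first, higher in the second in each.

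The next largest differences were all upward, in Hist1h2ak (0.83), Hist1h2ai (0.64), Hist1h4k (0.59) and Hist1h2af (0.57), each a log2 ratio. These 4 genes and Hist1h2ah are annotated with at most 20 bases beyond the coding sequence. The 13 members compared whose transcript with the highest mean TPM is of this kind had a median log2 ratio of 0.35 ± 0.10. The 49 with longer transcripts had −0.06 ± 0.02. Gene lengths in those 13 had a median of 393 bases. Among all 15 members with such a transcript, the effective length was under 200 bases in library 1 for 14. For the pairs identical in coding sequence, the sums were all lower in the second quantification, with log2 ratios between −0.24 and −0.09. The median absolute log2 ratio of the 62 members compared was 0.11.

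**Figure D5:**
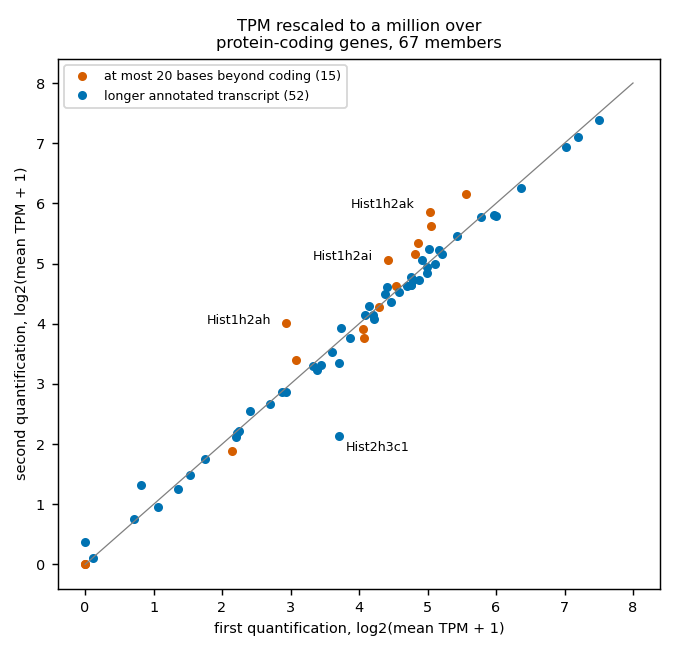
Mean level of the 67 members in each quantification as log2(mean TPM + 1), rescaled over protein-coding genes. Orange marks the 15 members whose transcript with the highest mean TPM has at most 20 bases beyond the coding sequence. Most members lie near the grey line of equality, Hist2h3c1 lies below it and Hist1h2ah, Hist1h2ak and Hist1h2ai above it.

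How far a single member can be trusted varied widely. In the first quantification 6 members had whole counts above 0 with a posterior SD of 0 in each library: Hist1h1a, Hist1h1b, Hist2h2be, Hist2h4, Hist3h2ba and Hist4h4. For 12 members the SD averaged over 10% of the count. Hist1h2bq and Hist1h2br were the least defined, with bounds of 0.222 to 12.7 and 0.239 to 12.7 TPM in library 1. Exons of 24 members overlap another annotated gene, most on the opposite strand, and the strand setting is not given, so those reads cannot be told apart.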

How the data were processed

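Members and gene lists were chosen with earlier results of these data known. The authors deposited, for each of 3 libraries, expected counts (estimated, not whole) and TPM per gene and transcript in the RSEM layout, and per transcript in the kallisto layout, on the mm10 build and the GENCODE M21 annotation, per the labels and file headers. Neither tools nor strand setting are given in the sources used here. The TPM credibility bounds (signal) and count posterior SDs are also the authors', per the file headers. Second-quantification transcripts were summed per gene.

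The test of variation was run in edgeR 4.0.16 (R 4.3.3): expected counts rounded to whole numbers, filterByExpr, TMM, trended dispersion, chi-square test of the residual deviance of an intercept model, Benjamini-Hochberg adjustment over all genes, threshold 0.05, prior count 0.5. The step was tested on simulated data. DESeq2 1.42.0 gave alternative size factors. TPM ratios used a pseudocount of 1. Sequence and summary steps used Python 3.11.15, pandas 2.3.3 and numpy 2.4.6.

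Genes named were the 3 highest of each class, called members, the 6 with the largest difference between quantifications, testis-linked genes and identical copies. The list genes named were the 2 highest and the lowest. Others (Hist1h1d, Hist1h2ac, Hist1h2ad, Hist1h2ae, Hist1h4b, Slbp, Npat, H2afx, Trim17 and the 6 members with an SD of 0) were named after their values were seen. Gm20634 was named for its overlap with Hist2h3c1. The comparison with short genes was added after seeing the data. Alternatives left out each library and changed the level threshold, unit, normalization, filter, dispersion, pseudocount and quantification.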

Additional observations from a re-analysis of the deposited data

Results flagged for a closer look

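The pseudogene row Hist3h2bb-ps, outside the members, had expected counts of 1, 2 and 4 in libraries 1, 2 and 3. The 4 counts of library 3 exceed the 3 counts that a count of 0 allows. The other pseudogene rows, Hist1h2aj and Hist1h2al, had 0 in each library.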

How the results depend on the processing

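No paired analysis was possible because all libraries belong to 1 group. The count of members at 1 TPM in each library stayed within 1.5 times under each alternative run. The median level was 2.06 TPM in the second quantification, 17.5 TPM when rescaled over protein-coding genes and 7.86 TPM over members at 1 TPM or more. The members' share was 0.0471% of protein-coding expected counts. Called members numbered 0 in the second quantification, 5 with a common dispersion, 1 with identical copies summed and 1 without any 1 library. Over all genes the second quantification gave 200 calls of 13372, a common dispersion 298 of 12231 and summed copies 202 of 12228. Without library 1, 2 or 3 the calls over all genes were 132 of 12511, 91 of 12333 and 89 of 12419. The median log2 ratio of the quantifications was −1.18 on deposited TPM, where the share of TPM in protein-coding genes differs between them. In expected counts the class shares were 28.4% for H1, 21.2% for H2A, 11.7% for H3 and 14.4% for H4, and in the second quantification 31.1% for H2A and 12.1% for H3. Of 28 named members, 9 moved by more than 1 SD in the second quantification. Causes were not tested.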
